A study of Homo sapiens with 2 samples.

Results

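The promoters described here were GC-rich and carried no NUDT21 peak. They were taken from CUT&Tag of J.gamma1, a human leukemia line of the T lineage (T-ALL). In this assay an antibody, here against NUDT21, directs a transposase to its target, and the fragments it releases are sequenced. The data were 2 biological replicates of 1 group, untreated as far as the labels tell, and no control library was analysed here. A gene was included when 2 conditions held. At least 65% of the bases within 500 bp either side of its 5′ end had to be G or C, and no peak of either replicate could lie within 3 kb of any of its annotated transcript starts. Of 19970 protein-coding genes on chromosomes 1 to 22 and X, 5466 were GC-rich in this sense, and 727 of these (13.3%; 95% Wilson interval 12.4 to 14.2) had no peak. Another 3917 (71.7%) had a peak in both replicates and served as the comparison, and 822 (15%) had a peak in 1 replicate only. Because the genes were chosen by the absence of peaks at their starts, that absence is a description and was not tested. All shares below are counts of genes in 1 cell line, and their intervals cover counting error only.

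NUDT21, also called CFIm25, is the small subunit of cleavage factor Im, which binds UGUA in nascent RNA and helps to choose where an mRNA is cleaved and polyadenylated. Most GC-rich human promoters lie in CpG islands, stretches in which the dinucleotide CpG has been kept at a high density. Such islands start housekeeping genes, which nearly every cell uses, and also developmental regulators and neuronal genes, whose islands are typically held by Polycomb proteins in cells where the gene is off. Peaks of a chromatin profile at such promoters therefore fall on genes of very different function.

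The upstream sequences of 4 genes show what these promoters look like. Each stretch is the 200 bases just before the gene's 5′ end in hg38, written 5′ to 3′ on the strand of the gene, with every CpG in capitals. SETBP1, which encodes a partner of the oncoprotein SET, had the highest CpG observed/expected ratio of the 727 genes (1.11 in the window around its 5′ end). KCND1, a voltage-gated potassium channel, had the lowest (0.301). IRX2, an Iroquois homeobox gene, had the highest GC content of the homeobox genes without a peak (78.4%). ADGRL1, the adhesion receptor latrophilin 1, is shown for contrast: of the GC-rich genes with a peak in both replicates it had the highest lower fold, with 42.8 in replicate 1 and 36.2 in replicate 2. A fold here is the enrichment that the peak caller gave at the summit over its local background. Where several peaks lay within 3 kb of a gene's starts, the highest fold is given. That peak need not lie at the start printed here. ADGRL1 had 10 such peaks in replicate 1 and 11 in replicate 2.
SETBP1, chr18:44679973-44680172, plus strand: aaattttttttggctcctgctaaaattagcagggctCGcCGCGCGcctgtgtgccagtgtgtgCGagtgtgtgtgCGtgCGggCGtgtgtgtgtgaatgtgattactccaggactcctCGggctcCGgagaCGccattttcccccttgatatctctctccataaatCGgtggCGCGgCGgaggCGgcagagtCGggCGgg
KCND1, chrX:48971845-48972044, minus strand: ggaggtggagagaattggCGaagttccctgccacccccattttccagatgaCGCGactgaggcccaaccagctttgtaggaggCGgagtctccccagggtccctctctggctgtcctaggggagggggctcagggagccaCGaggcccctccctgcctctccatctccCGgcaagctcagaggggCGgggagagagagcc
IRX2, chr5:2751678-2751877, minus strand: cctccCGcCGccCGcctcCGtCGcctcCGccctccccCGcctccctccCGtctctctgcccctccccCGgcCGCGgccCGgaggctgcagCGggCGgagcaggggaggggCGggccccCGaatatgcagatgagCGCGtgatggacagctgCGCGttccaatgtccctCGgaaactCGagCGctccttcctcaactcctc
ADGRL1, chr19:14206188-14206387, minus strand: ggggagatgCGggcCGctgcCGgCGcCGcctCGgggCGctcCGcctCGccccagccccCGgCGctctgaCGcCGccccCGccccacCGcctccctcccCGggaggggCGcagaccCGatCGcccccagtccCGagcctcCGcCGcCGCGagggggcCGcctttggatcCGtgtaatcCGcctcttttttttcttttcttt
The stretch of SETBP1 held 18 CpG, that of KCND1 held 7, that of IRX2 held 23 and that of ADGRL1 held 27. IRX2 and ADGRL1 were thus close in CpG number, yet the nearest peak to any start of IRX2 was 109449 bp away in replicate 1 and 109793 bp away in replicate 2.

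The 2 replicates did not contribute equally. Replicate 1 had 92638 peaks on the chromosomes used and replicate 2 had 66642, and the lowest −log10 q was 2.00 in both. Of the GC-rich genes, 753 (13.8%) lacked a peak in replicate 1 and 1523 (27.9%) lacked one in replicate 2, a mean of 20.8% ± 9.96 (SD, n = 2). Peaks present in 1 replicate were nearly all in replicate 1, at 796 genes, against 26 genes with a peak in replicate 2 only. The 796 genes had a median fold of 3.61 in replicate 1 (95% interval 3.47 to 3.70), and the genes with a peak in both had 6.83 there (6.69 to 6.99). The lists hold no value outside a peak, so the signal at the 727 promoters is unknown, and how many lay just under the threshold of the caller was not tested. Over all protein-coding genes, 29.2% had no peak in either replicate.

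In window GC content the 727 promoters differed little from those with peaks. The share of genes without a peak fell steeply up to a GC content of 60% and more slowly beyond it. It was 84.4% of all protein-coding genes under 40% GC, 32.7% from 50 to 55% and 15.6% from 60 to 65%. From 65 to 70% it was 14.4%, from 70 to 75% 12.8% and from 75% on 10.2%. Medians of window GC were 69.1% (68.6 to 69.4) without a peak and 69.6% (69.4 to 69.8) with a peak in both replicates. At the top of the range stood ADRA2C (82.0%), the α2C adrenergic receptor, followed by DIP2C (81.8%), SHISA6 (81.7%), an auxiliary protein of AMPA-type glutamate receptors, TCERG1L (81.5%) and WWC3 (81.4%). Just above the minimum, at 65.03%, lay 16 genes, among them GPR101, PAX1, LYNX1, MT1M and SPAG6. At 64.94%, just outside it, 6 genes had no peak either, among them TTC39B, GPRIN3, DMGDH, THNSL2 and TRAF6.

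CpG density differed little. The median CpG observed/expected ratio, which is the number of CpG over the number that the C and G contents predict, was 0.844 without a peak (0.833 to 0.853) and 0.830 with a peak in both (0.825 to 0.833). Low ratios were less common among the promoters without a peak: 15 of 727 lay under 0.6 (2.06%; 1.25 to 3.38), against 287 of 3917 (7.33%; 6.55 to 8.19). Among genes with under 42% GC in the surrounding DNA these shares were 1.10% and 0.435%, on 5 and 2 genes, with overlapping intervals. Besides KCND1, the lowest ratios belonged to GPR173 (0.311), TCL1B (0.369), SLC7A14 (0.520) and NIPAL4 (0.526). Behind SETBP1 at the upper end came NKX6-2 (1.11), EFNB2 (1.09), ACVR2A (1.07) and SALL3 (1.06).

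What the genes encode differed more. Gene lists were set up for 8 functional groups, with earlier results of these data known. The share of each group's GC-rich genes without a peak is given beside the 13.3% of all GC-rich genes. Developmental transcription factors had no peak at 38 of 142 genes (26.8%; 20.2 to 34.6). Channels, receptors and synaptic proteins had none at 43 of 145 (29.7%; 22.8 to 37.5), signalling ligands and guidance cues at 24 of 97 (24.7%; 17.2 to 34.2) and adhesion and matrix genes at 17 of 71 (23.9%; 15.5 to 35.04). Housekeeping genes were at the opposite end, with 2 of 164 (1.22%; 0.335 to 4.34), and other transcription factors, mostly C2H2 zinc fingers, had 17 of 142 (11.97%; 7.61 to 18.3). The order of housekeeping, all GC-rich and the 4 higher groups was the same in each replicate alone. In replicate 1 housekeeping genes lacked a peak at 1.83% and the 4 groups at 25.8 to 31.0%, beside 13.8% of all. In replicate 2 these values were 7.93%, 38.1 to 53.8% and 27.9%. The lists cover a minority, since 585 of the 727 genes (80.5%) were in none of them, and genes in no list lacked a peak at 12.5%.

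**Figure D1:**
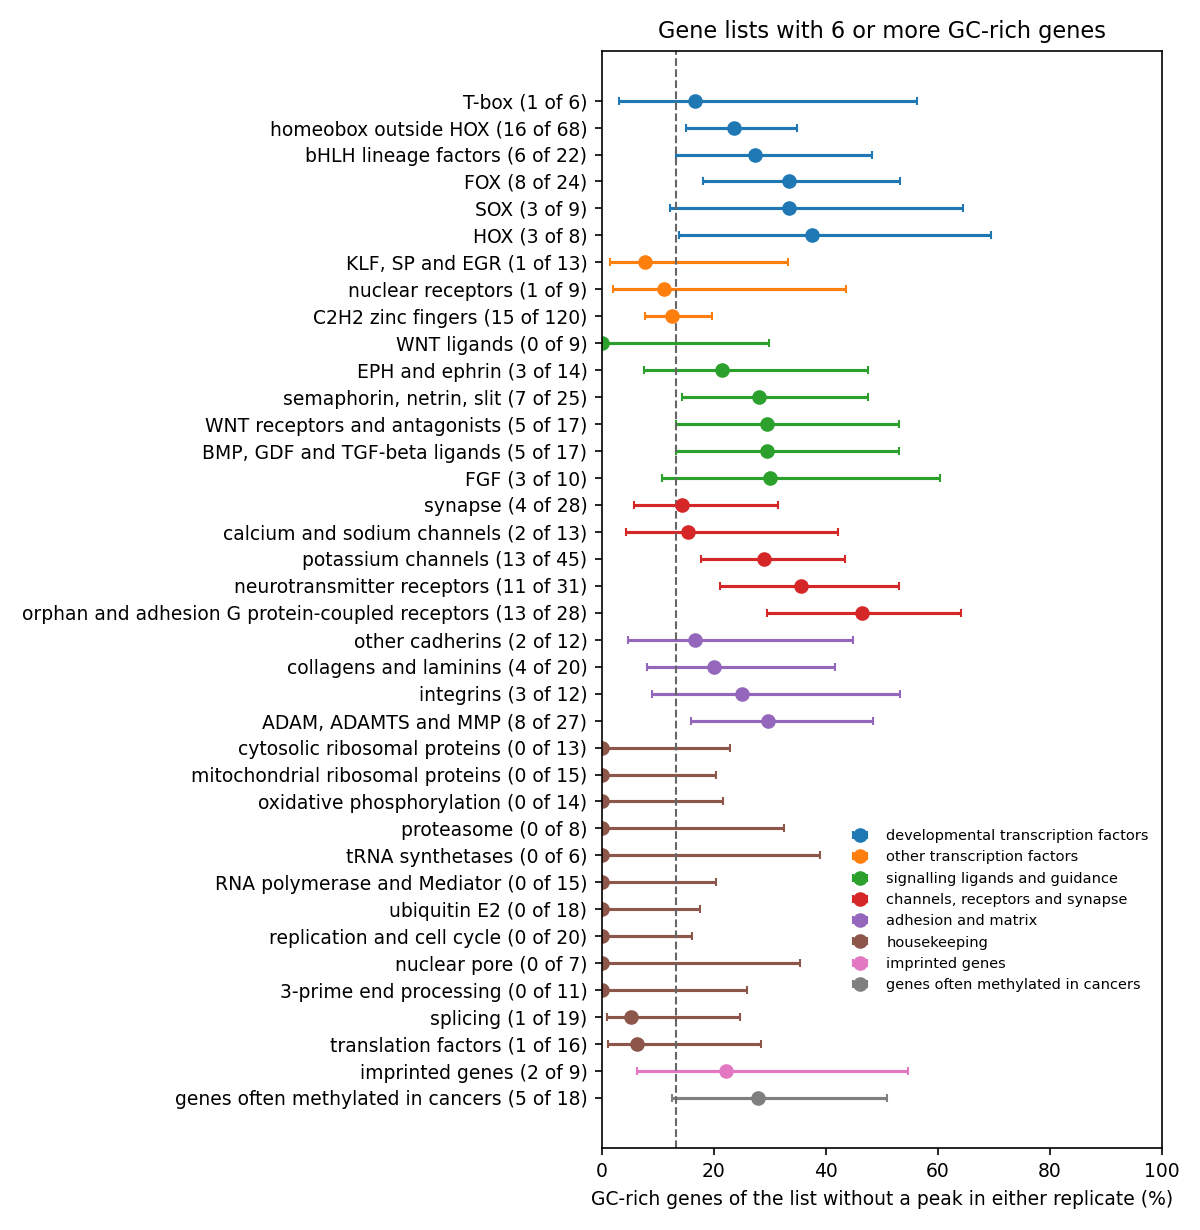
Share of GC-rich genes without a peak in either replicate (x axis, %) for each list with 6 or more GC-rich genes, with the genes counted in brackets, colours for the group and bars for 95% Wilson intervals; the dashed line is the 13.3% of all GC-rich genes. Every housekeeping list shown lies left of the line, and orphan and adhesion G protein-coupled receptors lie farthest to the right, at 46.4%.

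Homeobox genes encode DNA-binding factors that pattern the embryo. Of 76 GC-rich homeobox genes, 19 had no peak (25%; 16.6 to 35.8). Over all 39 HOX genes, whatever their GC content, 4 lacked a peak (10.3%), beside 29.2% of all protein-coding genes. Only 8 of the 39 were GC-rich, and 1 of these, HOXC13, had a peak in both replicates, with folds of 9.81 and 4.64. HOXD1, HOXA4 and HOXD9 had none, and HOXA13, HOXB9, HOXD13 and HOXD8 had a peak in replicate 1 only, with folds of 2.91 to 3.83. Within the HOXD cluster the nearest peak to a start of HOXD9 was 6748 bp away in replicate 1 and 120352 bp away in replicate 2, and for HOXD1 it was 10353 and 80798 bp away. Outside HOX, 16 of 68 genes had no peak, led in GC content by IRX2 (78.4%), HMX1 (78.2%), EN2 (77.1%) and NKX6-2 (75.8%). EN2, a regulator of the midbrain and hindbrain, had its nearest peak 8819 bp away in replicate 1 and 29471 bp away in replicate 2. The homeobox genes with the highest folds were POU2F1, the broadly expressed OCT1, with folds of 20.3 and 15.2, and SIX5 with 13.4 and 17.1.

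Other families of lineage regulators held genes of both kinds. Forkhead factors split evenly over no peak, 1 list and both lists, with 8 of 24 in each. FOXF2, FOXL3, FOXI3 and FOXI2 had none, whereas FOXK2, which is expressed in most tissues, had folds of 27.6 and 18.1 and FOXD2 had 8.78 and 7.20. Of 9 SOX genes, SOX7, SOX21 and SOX17 had none, and SOX18 had folds of 8.57 and 8.57. Basic helix-loop-helix factors of lineages lacked a peak at 6 of 22, among them TWIST1 of mesenchyme, PTF1A of pancreas and NEUROG1 of neurons, while LYL1, a hematopoietic member of the family, had folds of 8.61 and 7.60 and SCX, a tendon factor, had 10.3 and 7.55. TWIST1 was also remote from any peak, by 1176594 bp in replicate 1 and 1176661 bp in replicate 2. Of the GC-rich T-box genes, TBX20 of the heart was the only one of 6 without a peak.

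Receptors and channels were split by list. Orphan and adhesion G protein-coupled receptors had none at 13 of 28 genes (46.4%; 29.5 to 64.2), including GPR143, GPR27, ADGRA3 and GPR26. Neurotransmitter receptors followed with 11 of 31 (35.5%; 21.1 to 53.1), with ADRA2C, the kainate receptor subunit GRIK3, the GABA-A subunit GABRE and the somatostatin receptor SSTR4 as the GC-richest. Potassium channels had none at 13 of 45 (28.9%; 17.7 to 43.4), among them KCND3 and KCNMA1, the large-conductance calcium-activated channel. Calcium and sodium channels were near the background in this count, with 2 of 13 (15.4%; 4.33 to 42.2), CACNA2D3 and CACNA2D1. However, 6 of these 13 genes had a peak in 1 replicate only. A peak in both was present at 5 (38.5%), against 71.7% of all GC-rich genes. Genes of the same families with peaks in both included the NMDA subunit gene GRIN3B (20.5 and 11.3) and the dopamine receptor gene DRD4 (11.99 and 12.1). HCN2, a pacemaker channel, had folds of 12.3 and 10.4. Synaptic scaffold and release genes were also near the background in the count without a peak, with 4 of 28 (14.3%; 5.70 to 31.5): DLGAP1, SYN2, SLITRK2 and RIMS1.

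Ligands, guidance cues and matrix genes were split within each pathway. All 9 GC-rich WNT ligand genes had a peak in at least 1 replicate (0 of 9 without; upper bound 29.9%), 4 of them in 1 replicate only. Of 17 genes in the list of WNT receptors and antagonists, 5 had none (29.4%; 13.3 to 53.1), among them FZD10, FZD4, RSPO1 and SFRP2. RSPO1 was counted in this list although it encodes a secreted agonist of WNT signalling. The intervals of these WNT lists overlapped. FGF4, FGF2 and the receptor gene FGFR2 lacked a peak, and FGF22 and FGFR4 had folds of 12.7 and 9.35 and of 8.83 and 8.22. In the TGF-β superfamily INHBB, GDF6, BMP2 and the BMP antagonist gene GREM1 had none, while AMH, a hormone of the gonads, had folds of 11.3 and 11.6 and TGFB1 had 10.1 and 5.76. The semaphorin, netrin and slit list had 7 of 25 without a peak (28%; 14.3 to 47.6), including SEMA5A, UNC5B, UNC5D and SLIT3. SEMA4D, which is known in lymphocytes, had 10.2 and 9.74, and the netrin gene NTN3 had 28.6 and 8.94. Among integrins ITGA8, ITGB8 and ITGA2 lacked a peak, while ITGB4, an epithelial β chain, had folds of 10.7 and 9.80 and ITGB2, the leukocyte β2 chain, had 11.95 and 8.62. Collagen and laminin genes lacked one at 4 of 20: LAMC1, LAMA1 and the neighbouring pair COL4A3 and COL4A4, which start from opposite strands.

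The housekeeping lists were almost empty of such promoters. None of the GC-rich genes for cytosolic ribosomal proteins (13), mitochondrial ribosomal proteins (15), oxidative phosphorylation (14), the proteasome (8), RNA polymerase and Mediator (15), ubiquitin E2 enzymes (18), replication and cell cycle (20) or 3′ end processing (11) lacked a peak in both replicates. With lists this short the upper bounds are 16.1 to 32.4%, so single lists say little, and the union of 164 genes carries the comparison. The 2 exceptions were SRSF12 and EIF5A2. SRSF12 encodes a serine/arginine-rich splicing regulator, and its nearest peaks were 7193 and 13074 bp from a start. EIF5A2, a paralog of the translation factor gene EIF5A, was 550864 and 721507 bp from one. The GC-rich imprinted genes had 2 of 9 without a peak, GRB10 and KLF14. Genes often methylated in cancers had 5 of 18 (27.8%; 12.5 to 50.9), namely TWIST1, NEUROG1, SFRP2, SFRP1 and SLIT2, and their methylation in this line is not known from these files.

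The DNA around the promoters differed widely. GC content within 100 kb either side, a measure added after the data had been seen, had a median of 40.9% (40.5 to 41.2) around genes without a peak, 42.6% (42.2 to 43.01) around genes with a peak in 1 replicate and 49.2% (48.8 to 49.4) around genes with a peak in both. Among GC-rich genes with surroundings under 38% GC, 119 of 226 had no peak (52.7%; 46.2 to 59.1). From there the share fell at each step, to 35.98% at 38 to 40% GC, 28.4% at 40 to 42%, 17.9% at 42 to 45%, 6.07% at 45 to 50%, 1.51% at 50 to 55% and 0.493% (3 of 609) from 55% on. The share without a peak in replicate 1 alone went from 53.1 to 0.493% over these steps and that in replicate 2 from 79.2 to 1.64%. With a peak in both replicates, the median of the highest fold per gene went from 5.09 to 10.3 in replicate 1 over these steps. In replicate 2 it went from 3.89 to 8.25. The number of peaks per gene was not held equal in this comparison. Genes whose own window was not GC-rich showed the gradient as well, from 75.9 to 0.694%. With surroundings under 42% GC, the share without a peak was 35.1% at a window GC of 65 to 70%, 36.5% at 70 to 75% and 32.2% from 75% on, while the share with a peak in both was 39.6, 30.9 and 26.7%. With surroundings of 50% or more, the shares without a peak in these window classes were 0.721, 1.03 and 2.34%, on 6, 6 and 9 genes. The caller sets each peak against a local background that the lists do not give for places without a peak, and the part of that background in the gradient was not tested.

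**Figure D2:**
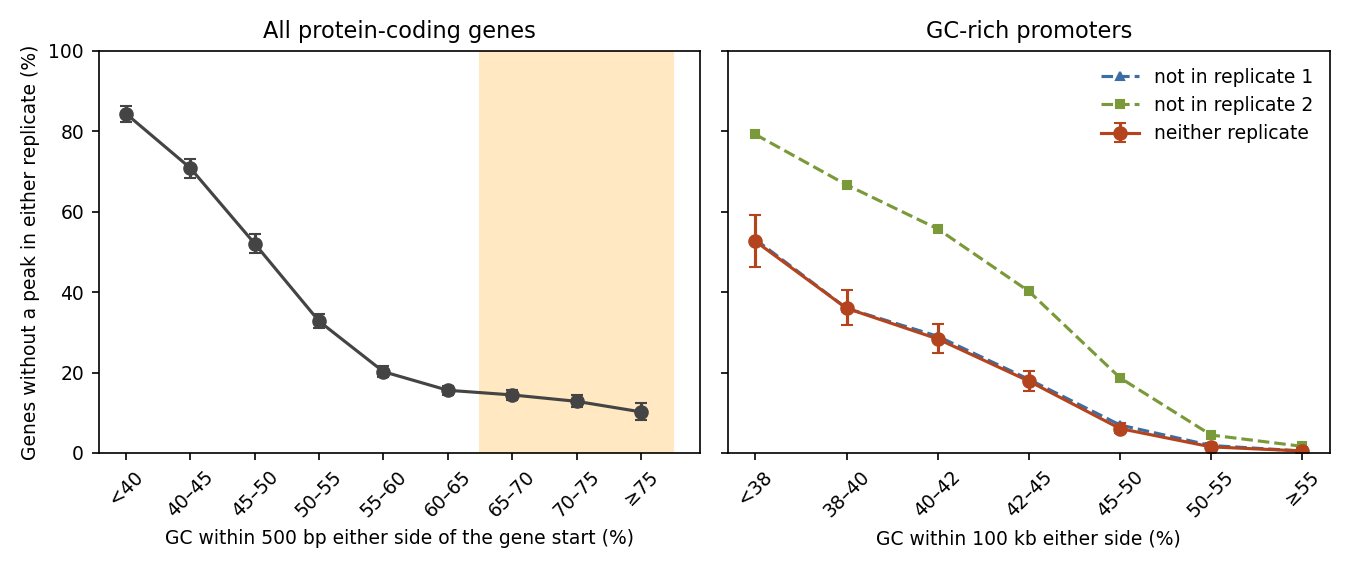
Left, share of all protein-coding genes without a peak in either replicate (y axis, %) by GC content within 500 bp of the gene start, with the GC-rich range shaded; right, the same share of GC-rich genes by GC content within 100 kb either side, with broken lines for each replicate alone and bars for 95% Wilson intervals. On the left the share falls slowly across the shaded range, from 14.4 to 10.2%, and on the right it falls from 52.7 to 0.493%.

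Surroundings and gene function were then combined. With surroundings under 42% GC, where 453 of 1282 GC-rich genes had no peak (35.3%; 32.8 to 37.99), signalling and guidance genes lacked one at 15 of 17 (88.2%; 65.7 to 96.7). In the same surroundings channels, receptors and synaptic genes lacked one at 22 of 32 (68.8%; 51.4 to 82.1), adhesion and matrix genes at 12 of 17 (70.6%; 46.9 to 86.7) and developmental transcription factors at 12 of 27 (44.4%; 27.6 to 62.7). Housekeeping genes in surroundings of that kind lacked a peak at 1 of 28 (3.57%; 0.633 to 17.7). At 42 to 50%, where 10.6% of all GC-rich genes had none (9.44 to 11.9), signalling genes were close to that share with 5 of 43 (11.6%; 5.07 to 24.5), and so were adhesion genes with 4 of 28 (14.3%; 5.70 to 31.5). Channels and receptors, with 18 of 66 (27.3%; 18 to 39.04), and developmental transcription factors, with 21 of 79 (26.6%; 18.1 to 37.2), stayed above it. At 42 to 50%, 72.3% of all GC-rich genes had a peak in both replicates. This share was 67.4% for signalling genes, 53.6% for adhesion genes, 46.8% for developmental transcription factors and 31.8% for channels and receptors. Homeobox genes lacked a peak at 25% in each step, with 3 of 12 under 42% (8.89 to 53.2) and 12 of 48 at 42 to 50% (14.9 to 38.8). From 50% on it was 4 of 16 (10.2 to 49.5). These intervals are too wide to tell whether homeobox genes have a gradient. Under 42% their share was below the 35.3% of all GC-rich genes, which lies inside its interval. The median surrounding GC of developmental transcription factors (47.3%), channels and receptors (46.8%) and housekeeping genes (49.1%) spanned a narrow range beside that of all GC-rich genes (46.9%).

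**Figure D3:**
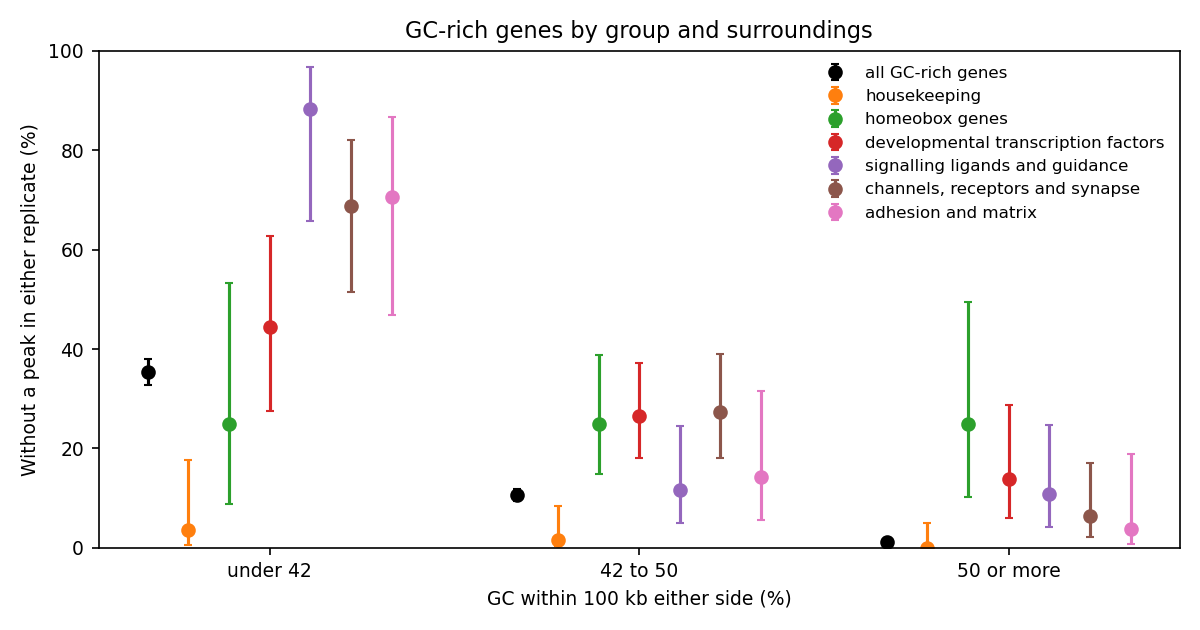
Share of GC-rich genes without a peak in either replicate (y axis, %) in 3 classes of GC content within 100 kb either side (x axis), for all GC-rich genes in black and 6 groups in colour, with 95% Wilson intervals. Housekeeping genes stay at or below 3.57% in every class, homeobox genes are at 25% with wide intervals, and the other groups fall from left to right.

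Where the surroundings were GC-rich, a promoter without a peak was rare and often belonged to a listed gene. Only 21 of 1799 GC-rich genes with surroundings of at least 50% GC had none (1.17%; 0.765 to 1.78), and 13 of the 21 were in a list other than housekeeping (61.9%; 40.9 to 79.3), against 170 of 1732 with a peak in both (9.82%; 8.50 to 11.3). These 21 genes were looked at after their values were seen. The 13 were the transcription factor genes FOXL3, NKX6-2, HMX1, EN2 and CDX1, the signalling genes FGF4, INHBB, GLI2 and UNC5B, the receptor and channel genes ADRA2C, KCNJ12 and KCND1, and the matrix protease gene ADAMTS2. Some were close to a peak all the same. KCND1 had its nearest peak 4140 bp from a start in both replicates, and NKX6-2 had its nearest at 4213 and 4280 bp. HMX1 was farther, at 25021 and 147585 bp, and so was INHBB, at 20208 and 17252 bp. At the low end, with surroundings under 42% GC, 69 of 453 genes without a peak were in such a list (15.2%; 12.2 to 18.8), against 24 of 460 with a peak in both (5.22%; 3.53 to 7.65).

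Peaks were also scarce away from the starts, at places that the choice of genes did not use. Within 100 kb either side, leaving out 3 kb around each start of the gene, the median density was 0 peaks per 100 kb in both replicates for genes without a promoter peak. For genes with a peak in both it was 17.5 (16.9 to 17.9) in replicate 1 and 13.2 (12.5 to 13.9) in replicate 2, and for genes with a peak in 1 list 1.11 and 0.538. No peak of either list lay in this range for 373 of 727 genes (51.3%; 47.7 to 54.9), against 103 of 3917 (2.63%; 2.17 to 3.18). With surroundings under 42% GC the shares were 65.8% (61.3 to 70) and 19.1% (15.8 to 22.97), and at 42 to 50% they were 29.2% and 0.870%. Neighbouring genes share these peaks and are not independent of each other.

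Distances to the nearest peak ran over 3 orders of magnitude. Their median from any start was 79.3 kb in replicate 1 and 155.6 kb in replicate 2. For 91 genes a peak of either list lay within 10 kb, for 298 none lay within 100 kb, and for 85 none within 500 kb. By the nearer of the distances in the 2 replicates, the farthest was MET, the hepatocyte growth factor receptor gene, with 4180907 bp in replicate 1 and 3732104 bp in replicate 2. TMEM47 followed with 3670158 and 3903822 bp, then KIF21A, which encodes a kinesin, with 2795025 and 2556735 bp. NXPH2 had 2537464 and 2537483 bp, and KCNIP4, a partner of Kv4 channels, had 2344210 and 2635513 bp. Just outside the 3 kb limit were KCNJ12 (3004 bp in replicate 2), CHST15 (3055 bp in replicate 1), the δ opioid receptor gene OPRD1 (3073 bp in replicate 1), an unnamed gene on chromosome 5 (3075 bp in replicate 2) and TMEM61 (3153 bp in replicate 2). Just inside were KCNF1 (2929 bp), HTR6 (2867 bp), SPIRE1 (2826 bp), GRIK4 (2800 bp) and MN1 (2733 bp), each with a single peak list and a fold of 2.31 to 3.79.

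**Figure D4:**
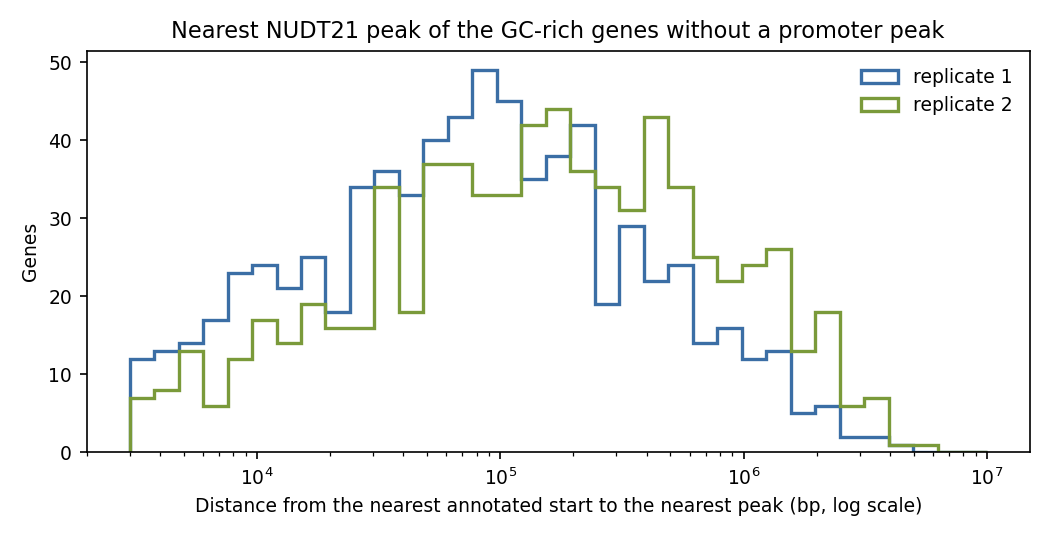
Number of the 727 genes (y axis) by distance from the nearest annotated start to the nearest peak (x axis, bp, log scale), for replicate 1 in blue and replicate 2 in green. No gene lies under 3 kb, by the rule, and the medians are 79.3 kb in replicate 1 and 155.6 kb in replicate 2.

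Many of the genes shared long tracts without any peak. The stretch around a gene start without a peak of either list had a median of 523.1 kb (463402 to 573688 bp), and the 727 genes lay in 609 such stretches, of which 99 held at least 2 of them. Coordinates are given in hg38. The longest ran over 10.8 Mb of chromosome 4, from base 26874085 to 37685931, and held ARAP2 and NWD2. A stretch of 9.12 Mb on chromosome 12 that includes the centromere held KIF21A and SLC2A13. SETBP1 stood alone in 8.24 Mb of chromosome 18, FOXP2 and MET shared 8.01 Mb of chromosome 7, and the phosphatase gene PTPRD and ZDHHC21 shared 7.54 Mb of chromosome 9. On chromosome 4, from base 18022408 to 24292981, the guidance gene SLIT2, KCNIP4 and ADGRA3 lay in 1 stretch of 6.27 Mb. HDAC9, TWIST1 and ITGB8 lay together in 2.56 Mb of chromosome 7. Despite the long tracts, only 84 of the 727 genes had another of them within 100 kb.

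By chromosome the share without a peak was lowest on chromosomes 19 (4 of 359, 1.11%), 22 (2 of 178, 1.12%) and 17 (5 of 370, 1.35%). It was highest on chromosomes 18 (31 of 90, 34.4%), 4 (69 of 203, 34.0%) and X (45 of 151, 29.8%). The medians of surrounding GC over the GC-rich genes of these chromosomes were 53.01, 51.4 and 50.3% for the first 3 and 42.3, 41.1 and 44.4% for the others. Chromosome 13 departed from the order, with 14.2% without a peak at a median surrounding GC of 41.9%.

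**Figure D5:**
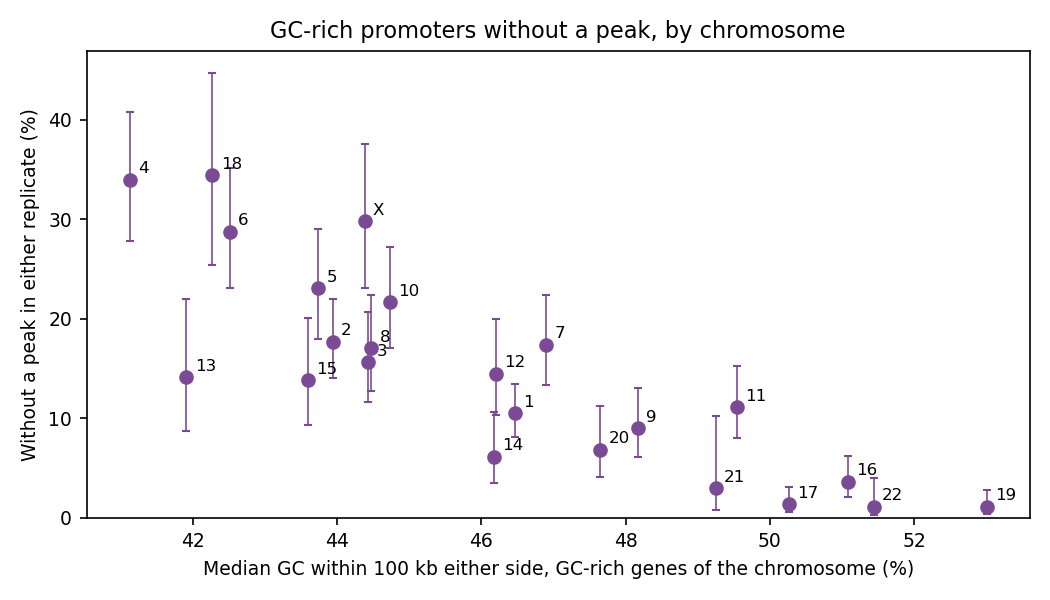
Share of each chromosome's GC-rich genes without a peak in either replicate (y axis, %, with 95% Wilson intervals) against the median GC content within 100 kb either side of those genes (x axis, %); points carry the chromosome name. Chromosomes 17, 19 and 22 lie at the lower right, at 1.11 to 1.35%. Chromosomes 4, 18 and X lie at the top, at 29.8 to 34.4%, with X farther right than 4 and 18.

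The genes were isolated and long. A median of 0 other protein-coding starts lay within 100 kb of a gene without a peak, against 4 for a gene with a peak in both. The share without a peak fell from 35.2% (32.4 to 38.2) of GC-rich genes with no such neighbour to 1.23% (0.668 to 2.24) of those with 8 or more. A protein-coding start on the opposite strand within 1 kb, the layout of a bidirectional promoter, was present at 41 genes (5.64%; 4.18 to 7.56) against 725 (18.5%; 17.3 to 19.8). With surroundings under 42% GC it was 7.06% (5.05 to 9.80) against 23.7% (20.04 to 27.8). Median gene length was 86.8 kb against 26.4 kb. Both contrasts were smaller with surroundings under 42% GC, with 114762 bp (100382 to 130718) against 81193 bp (73429 to 89561) and a median of 0 against 1 neighbouring starts. The number of annotated transcripts was 4 against 7, and a gene with more starts had more chances to have a peak within 3 kb of one. Of 636 GC-rich genes with 1 annotated start, 140 (22.01%) had no peak.

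Gene bodies and ends held fewer peaks as well. A peak inside the gene but beyond 3 kb from its starts was found at 49% of all GC-rich genes in replicate 1 and 43.6% in replicate 2. For genes without a promoter peak the shares were 18.4% (15.8 to 21.4) and 10.6% (8.56 to 13.04), and for genes with a peak in both 56.4% and 52.8%. Among genes of 50 kb or more, so that length was less of a difference, they were 22.96 and 13.2% against 83.2 and 75.95%. A summit within 1 kb of the gene's 3′ end, where cleavage and polyadenylation take place, was found at 9 genes in replicate 1 (1.24%; 0.653 to 2.34) and 6 genes in replicate 2 (0.825%; 0.379 to 1.79). All GC-rich genes had one at 17.7 and 15.8%, and those with a promoter peak in both at 22.6 and 20.6%. With surroundings under 42% GC the order held at lower levels, with 0.221 and 0% without a promoter peak (the 0 of 453 allows up to 0.841%) against 6.30 and 4.13%.

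Short words of known promoter factors were counted on both strands from 250 bases before to 50 after the gene's 5′ end, in 9 patterns. The letters are a description of the DNA and not of binding. CCAAT, the box bound by NF-Y, was in 20.2% of promoters without a peak (17.5 to 23.3), 31.0% of those with a peak in both (29.6 to 32.5) and 35.9% of all protein-coding promoters. CCGGAAG, an ETS-type word, was in 6.74% (5.14 to 8.80), 14.1% (13.04 to 15.2) and 11.9%. GCGCATGCG, the core of the NRF1 palindrome, was in 0.688% (0.294 to 1.6), 3.34% (2.83 to 3.96) and 2.36%, and AAGATGGCG, a YY1 word, in 0.688% (0.294 to 1.6), 2.81% (2.34 to 3.37) and 1.88%. With surroundings under 42% GC, CCAAT was in 18.98% (15.6 to 22.9) against 29.1% (25.2 to 33.4). There CCGGAAG was in 6.84% (4.86 to 9.55) against 11.7% (9.11 to 15), with intervals that overlapped slightly. GCGCATGCG was in 0.883% (0.344 to 2.25) against 3.48% (2.15 to 5.58), and AAGATGGCG in 1.10% (0.472 to 2.56) against 1.957% (1.03 to 3.68). The intervals overlapped slightly for GCGCATGCG and more widely for AAGATGGCG. GGGCGG, the GC box of SP factors, was in 87.9% (85.3 to 90.1) and 88.1% (87.1 to 89.1), beside 52.4% of all promoters. TGACGTCA, the cAMP response element, was in 1.38% (0.749 to 2.51) and 3.06% (2.57 to 3.65), beside 2.29% of all promoters. With surroundings under 42% GC, TGACGTCA was in 1.99% (1.05 to 3.73) against 2.83% (1.66 to 4.78), with overlapping intervals. CACGTG, the E-box of MYC-type factors, was in 7.70 and 9.96% with overlapping intervals, beside 8.35% of all promoters. TATAAA was in 3.58 and 2.71% with overlapping intervals, beside 10.8% of all promoters. With surroundings under 42% GC it was in 3.75% (2.36 to 5.93) against 1.09% (0.465 to 2.52), with intervals that overlapped slightly. TGTA, the DNA form of the UGUA word that NUDT21 binds in RNA, was in 25.9% (22.8 to 29.2) and 27.8% (26.4 to 29.2), beside 56.2% of all promoters.

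Repeated sequence was no more common than elsewhere. A word of 36 bases that occurs again on the main chromosomes was found in 114 windows without a peak (15.7%; 13.2 to 18.5) and in 780 with a peak in both (19.9%; 18.7 to 21.2). More than 50% of the words were repeated in 1.79% and 1.86%. Markers of cell types, counted over all genes whatever their GC content, had a promoter peak in both replicates at 10 of 15 T-lineage genes, 4 of 6 B-lineage, 4 of 5 myeloid, 1 of 3 erythroid, 2 of 4 epithelial, 2 of 4 mesenchymal, 2 of 4 neuronal and 1 of 2 hepatocyte genes. No peak in either replicate was found at 3 of 15 T-lineage genes (20%; 7.05 to 45.2), an interval that includes the 29.2% of all protein-coding genes. Lists this short cannot tell whether a promoter peak separates T-lineage genes from the others. Whether any gene named here is expressed in J.gamma1 was not measured in these files.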

How the data were processed

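NUDT21 CUT&Tag was carried out in 2 biological replicates of J.gamma1 cells. According to the methods of the study, the authors processed reads with fastp, aligned them to hg38 with Bowtie2 (version 2.2.5), removed duplicates with Picard and called peaks with MACS3. The submitters' processing notes give MACS3 version 3.0.1, and each replicate has a deposited peak list of its own. Whether a control library entered the calling is not given in the sources used here. The deposited peak lists give for each peak the fold enrichment (a ratio), −log10 p, −log10 q, a score and the summit, of which the score was not used. Replicate 1 held 97162 peaks and replicate 2 held 68532, with median folds of 3.95 and 4.23. Read totals are not in the lists, so the depth is unknown, and a peak that is missing from the list with fewer peaks can lie under its threshold.

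Gene models and transcript starts were those of GENCODE release 44, on the hg38 build that the files use. GC content and CpG were counted in 500 bp either side of the gene's 5′ end, and peaks were assigned by their nearest edge within 3000 bp of any start of the gene. Copies of the windows were searched as words of 36 bases. Shares carry 95% Wilson intervals and medians carry 95% order-statistic intervals. Members are genes of 1 line and not replicates, so no test was made. Genes to be named were, in each list, up to 4 without a peak with the highest GC content and up to 2 with a peak in both replicates and the highest lower fold, all HOX, imprinted and cancer-methylation genes, and genes at the ends of each measure or next to each limit. The genes, the 43 lists and these rules were chosen with earlier results of these data known. GC content of the surroundings was added after the data had been seen. Scripts were tested on simulated data with python 3.11.15, numpy 2.4.6, pandas 2.3.3, scipy 1.17.1 and pysam 0.24.0. Alternatives were other GC minimums and windows, other distances, stricter peak lists and each replicate alone.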

Additional observations from a re-analysis of the deposited data

Results flagged for a closer look

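Peaks on alternate, random and unplaced sequences of hg38 took no part in the comparisons. The windows of 10 of the 727 genes without a peak had a copy on such a sequence, and 3 of these copies, of BTG3, DOC2B and GREM1, had a peak within 3 kb there, in replicate 1 for 2 of them and in replicate 2 for 1. Of the genes with a peak in both replicates, 118 of 124 with a copy had a peak at it. The part of these copies in the absence of a peak at the 3 genes was not tested.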

How the results depend on the processing

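No paired analysis was possible because the samples form a single group and no test was made. Of 76 alternative values, 49 stayed within the error of the reported ones. This was the counting error for most measures. For the density difference it was the SD of the 2 replicates, and for the number of genes a factor of 1.5. Without 1 replicate the number of genes without a peak was 753 to 1523, their share 13.8 to 27.9%, the share of homeobox genes 25 to 47.4%, of housekeeping genes 1.83 to 7.93%, and of genes in surroundings under 40% GC 41.7 to 70.8% (41.5% with both lists). With the 10000 strongest peaks of each list there were 2786 genes (50.97%), homeobox genes reached 85.5%, housekeeping genes 23.8%, the CpG difference was 0.0028 and the density difference −20.0 peaks per 100 kb (−15.4 as reported). A −log10 q of at least 5 gave 18.1%, with 38.2% of homeobox and 4.88% of housekeeping genes. A GC minimum of 60% gave 1338 genes (14.3%) and of 70% 307 genes (12.02%; homeobox 36.4%), and a window of 250 bp gave 1170 genes (15.2%). The distance of 1000 bp gave 15.2% and the gene 5′ end alone 15.9%. The difference in median CpG ratio, 0.014 as reported, turned to −9.97e-05 at a GC minimum of 60% and to −0.00559 with a window of 250 bp, so its direction depends on these choices. With surroundings of 20 kb or 500 kb either side, the share under 40% GC was 36.8% and 47.7%. Housekeeping genes stayed below all GC-rich genes, and homeobox genes above them, in each of these settings that gave a value for both.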
